A study of Mus musculus with 12 samples.

Results

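Ly6a, Ly6c1, Ly6c2, Ly6e and Ly6i encode mouse surface antigens of the Ly6 family, and their rows were taken by symbol from each of the 12 FPKM (fragment counts corrected for transcript length and for the number of mapped reads) tables, giving 5 genes of the 24346 symbols listed. The genes were chosen by their levels in these same groups, with earlier results known (Ly6a above all for its level in M-MDSCs under MS-275), so the values of the 5 genes are given as a description, with no test. The RNA came from MDSCs (myeloid-derived suppressor cells, immature myeloid cells that restrain T-cell responses) sorted from Hepa 1-6 hepatoma tumors that grew in the livers of wild-type female C57BL/6J mice aged 6 to 8 weeks. M-MDSCs, the monocytic subset, were gated as CD11b+ Ly-6C high Ly-6G-, and PMN-MDSCs, the polymorphonuclear subset, as CD11b+ Ly-6C intermediate Ly-6G+. The mice had received vehicle or one of the class I histone deacetylase inhibitors MS-275 (entinostat) and CXD101, each at 5 mg/kg daily for 10 days starting on day 10 after inoculation, and tumors were taken on day 21. This dosing is described for the tumor experiments, while the sequencing methods speak of M-MDSCs only. Each of the 6 groups (3 treatments in 2 subsets) held 2 libraries. Nothing in the sources used here says whether the 2 libraries of a group came from separate mice or from pools. No error or p-value is therefore known to measure the spread between mice. Each rests on an estimate of the spread between libraries that all groups of a fit share. All cells carried the same genotype, Hepa 1-6 is a single hepatoma line, and the animals had been chosen for a high share of MDSCs in blood.

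Ly6 proteins are small, cysteine-rich and share a three-finger fold, and most are tied to the outer membrane by a glycosylphosphatidylinositol (GPI) anchor. Several, including Ly6a and Ly6e, are well known as interferon-inducible genes. In the myeloid lineage the Ly-6C antigen separates monocytes from neutrophils, and Ly6a, better known as Sca-1, is a standard marker of hematopoietic stem and progenitor cells that activated T cells and endothelium also carry.

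The 5 genes lie within 156.9 kb of chromosome 15 (GRCm38). Ly6e is on the plus strand at chr15:74955051-74959905. The others are on the minus strand, Ly6i at chr15:74979534-74983430, Ly6a at chr15:74994877-74998031, Ly6c1 at chr15:75044018-75048830 and Ly6c2 at chr15:75108158-75111970. None overlaps another annotated gene, and none of the genes annotated between them is among the symbols in the tables. Ly6g, the second antigen of the sort and a gene of the same cluster, was not analysed here.

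Because these genes are recent copies of each other, the coding sequences that decide whether a read can be placed are shown for the closest pairs (longest principal transcript, GENCODE annotation of GRCm38, 5′ to 3′, bases that differ within the pair in capitals). Ly6c1 and Ly6c2 differed at 9 of 393 coding bases (97.71% identity), with a longest identical run of 188 bases, which exceeds the read length of 101 bases. Coding bases 1 to 300, with 7 of the differences, read:
Ly6c1: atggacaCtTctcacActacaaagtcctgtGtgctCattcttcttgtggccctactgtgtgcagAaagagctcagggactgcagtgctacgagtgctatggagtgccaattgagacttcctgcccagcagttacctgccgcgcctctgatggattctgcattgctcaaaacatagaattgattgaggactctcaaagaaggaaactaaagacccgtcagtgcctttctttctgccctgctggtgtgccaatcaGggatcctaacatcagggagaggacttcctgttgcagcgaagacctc
Ly6c2: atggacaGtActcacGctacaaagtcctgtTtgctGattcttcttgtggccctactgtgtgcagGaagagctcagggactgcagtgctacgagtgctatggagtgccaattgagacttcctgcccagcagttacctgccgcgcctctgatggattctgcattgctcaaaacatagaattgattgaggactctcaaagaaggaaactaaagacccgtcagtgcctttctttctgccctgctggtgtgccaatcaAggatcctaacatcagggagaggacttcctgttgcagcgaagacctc
Ly6a and Ly6i were the next closest pair, with 55 differences in 402 bases (86.32% identity) and no identical run above 80 bases. Coding bases 103 to 402, with 49 of the differences, read:
Ly6a: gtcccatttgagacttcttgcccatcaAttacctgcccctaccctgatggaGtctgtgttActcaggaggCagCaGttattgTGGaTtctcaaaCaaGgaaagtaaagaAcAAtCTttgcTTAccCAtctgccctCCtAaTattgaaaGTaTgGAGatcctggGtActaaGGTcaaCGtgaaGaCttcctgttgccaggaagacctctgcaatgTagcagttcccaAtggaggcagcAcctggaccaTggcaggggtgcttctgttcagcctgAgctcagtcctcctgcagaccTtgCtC
Ly6i: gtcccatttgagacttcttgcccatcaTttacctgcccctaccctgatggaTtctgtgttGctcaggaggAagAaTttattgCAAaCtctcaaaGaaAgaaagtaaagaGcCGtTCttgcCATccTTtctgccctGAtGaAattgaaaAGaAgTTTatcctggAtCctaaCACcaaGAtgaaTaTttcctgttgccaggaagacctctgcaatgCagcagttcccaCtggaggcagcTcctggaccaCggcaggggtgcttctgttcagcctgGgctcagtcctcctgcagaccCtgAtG
The capitals are sparse in the first pair and frequent in the second. Ly6e shared 55.41% to 57.64% of aligned coding bases with the other 4 genes.

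Over whole transcripts, 14.6% of the 101-base windows of Ly6c2 and 7.41% of those of Ly6c1 occurred unchanged in another gene, for Ly6c2 always Ly6c1. Within 2 mismatches of a window of another of the 5 genes lay 74.2% of Ly6c2 windows, 43.5% of Ly6c1 windows, 15.9% of Ly6a windows, 1.99% of Ly6i windows and no Ly6e window. How multiply mapped reads were divided is not given in the sources used here. A low Ly6c1 value beside a far higher Ly6c2 value is therefore uncertain, while Ly6e, whose windows differed from the others at 51 or more bases, had no such window. No other gene of the 5 came within 2 mismatches of more Ly6a windows than Ly6c1, whose level stayed at or below 11.3 FPKM. The Ly6a windows near Ly6c2, a gene at 455 to 2447 FPKM, were not counted apart. Whether misplaced Ly6c2 reads add to the Ly6a values was not tested.

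**Figure D1:**
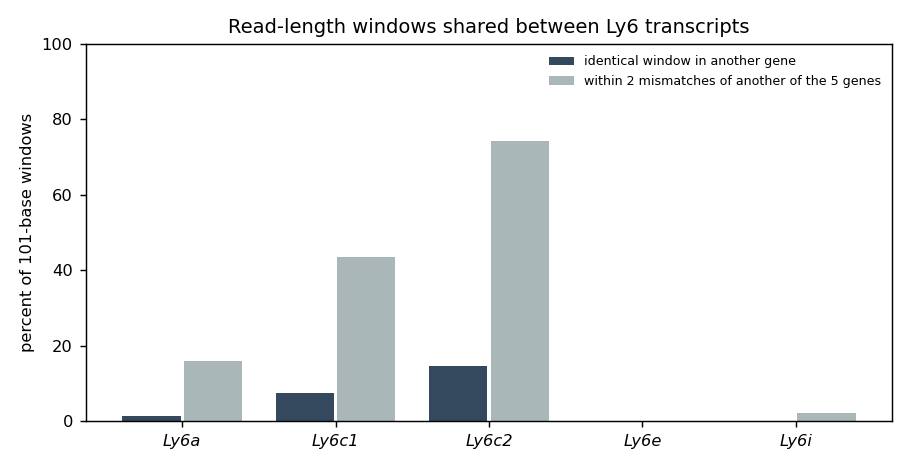
Percent of the 101-base windows of each gene's transcripts (vertical axis, linear) that are identical to a window of another gene (dark bars) or lie within 2 mismatches of a window of another of the 5 genes (light bars). Ly6c2 (14.6% and 74.2%) and Ly6c1 (7.41% and 43.5%) shared the most, and both Ly6e bars are at 0.

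The libraries resembled each other closely within groups (Pearson r of log2(FPKM + 1) 0.988 to 0.991, across genes). The steps between low FPKM values put the depth at roughly 8260000 to 10520000 reads in the M-MDSC libraries and 6820000 to 8060000 reads in the PMN-MDSC libraries, so that 1 FPKM in a transcript of 800 bases stood for about 5.46 to 8.42 reads. The sort could be read from the sums of other markers. The summed FPKM of 7 neutrophil genes was 10698 to 11486 in vehicle M-MDSCs and 69089 to 94886 in vehicle PMN-MDSCs. That of 6 monocyte genes was 387 to 405 against 229 to 253. Of the 6, Csf1r alone ran against the sort, at 123 FPKM in both vehicle M-MDSC libraries and 160 and 145 FPKM in vehicle PMN-MDSCs. Both sums also moved with treatment. The neutrophil sum was 21653 to 25577 under MS-275 and 21027 to 22322 under CXD101 in M-MDSCs. In PMN-MDSCs it was 235173 to 258567 and 243544 to 269164, and in each subset the treated sums lay above vehicle. Nearly all of this sum was S100a8 and S100a9. Of the 7 genes, Mmp9 was below vehicle in both subsets with either inhibitor, and Retnlg overlapped vehicle in M-MDSCs. The monocyte sum ran opposite to the neutrophil sum. It was 316 to 322 FPKM for MS-275 and 359 to 376 for CXD101 in M-MDSCs. In PMN-MDSCs it was 103 to 112 and 123 to 128, and every treated sum lay below vehicle. The 6 genes did not all fall. In M-MDSCs 4 were below and 1 (Ms4a6c) above vehicle with MS-275. With CXD101 3 were below and 3 (Ly86, F13a1 and Ms4a6c) above. In PMN-MDSCs 5 and 4 were below and 0 above. In bulk RNA, fewer cells of a type and less RNA per cell cannot be told apart.

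Ly6a, the Sca-1 gene, had the widest range of the 5, from 1.39 to 254 FPKM. In M-MDSCs it was at 1.39 and 1.58 FPKM under vehicle, 224 and 254 FPKM under MS-275, and 34.5 and 17.1 FPKM under CXD101. The 3 treatments did not overlap, with MS-275 highest and vehicle lowest, resting on about 12.5 and 13.8 reads. The mean was 161-fold higher under MS-275 than under vehicle, and 142- to 183-fold between single libraries. On the log2(FPKM + 1) scale, which understates changes of low genes, the difference was 6.59 ± 0.25 (SE from the limma fit, n = 2 per group). CXD101 differed from vehicle by 3.35 ± 0.25 and from MS-275 by 3.24 ± 0.25. The CXD101 libraries themselves were 2.02-fold apart, the largest gap within a treated group for this gene.

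In PMN-MDSCs, Ly6a started higher and ended lower than in M-MDSCs under MS-275. It was at 11.4 and 5.67 FPKM under vehicle, 140 and 146 FPKM under MS-275, and 42.4 and 52.7 FPKM under CXD101. Here too the 3 treatments did not overlap. The log2 difference from vehicle was 3.99 ± 0.25 for MS-275 and 2.41 ± 0.25 for CXD101, and MS-275 exceeded CXD101 by 1.58 ± 0.25. In vehicle, PMN-MDSCs exceeded M-MDSCs by 1.87 ± 0.30 on the log2 scale. The MS-275 difference was smaller in PMN-MDSCs than in M-MDSCs by 2.60 ± 0.43 log2 units, and the CXD101 difference by 0.95 ± 0.43. The last value moved to 0.46 without replicate 1 of the CXD101 M-MDSCs and also fell short of 1.5-fold without replicate 1 of the vehicle PMN-MDSCs. Among all genes above 0, Ly6a ranked between 9952 and 10064 in vehicle M-MDSCs and between 302 and 333 under MS-275.

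**Figure D2:**
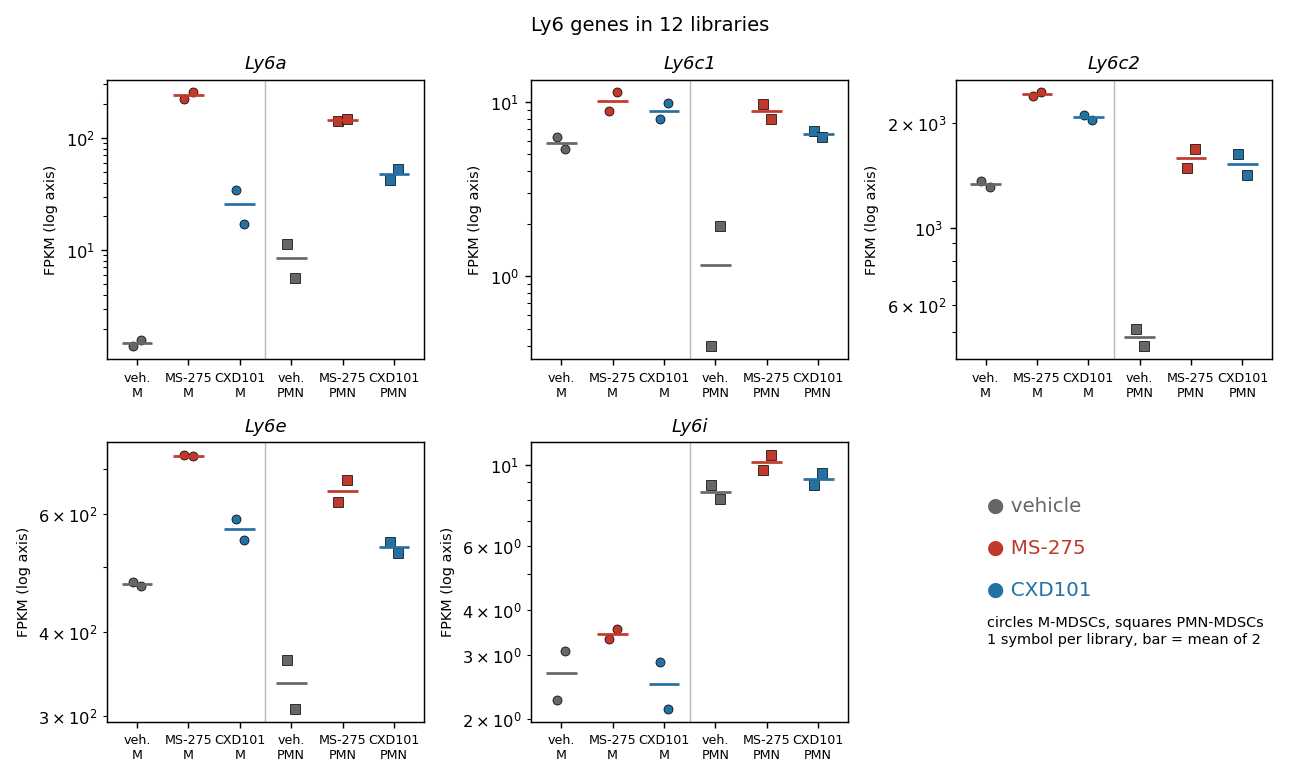
FPKM of the 5 genes in the 12 libraries (log axes, a separate range in each panel), with circles for M-MDSCs, squares for PMN-MDSCs, grey for vehicle, red for MS-275, blue for CXD101 and a bar at the mean of 2 libraries. Ly6a spans 1.39 to 254 FPKM, whereas Ly6i separates the subsets and stays between 2.13 and 3.54 FPKM in M-MDSCs and between 8.03 and 10.6 FPKM in PMN-MDSCs.

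Markers of other cells known to carry Sca-1 were read beside these values. Of 7 T or NK cell markers in the tables, 1 or none reached 1 FPKM in any group, Cd3e was at 0.212 FPKM or less, Ncr1 was at 0 throughout, and the summed level was 0.140 to 0.267 FPKM in vehicle M-MDSCs, 1.42 to 1.70 under MS-275 and 0.620 to 0.939 under CXD101. In PMN-MDSCs the sum was 0.711 to 1.12, 2.86 to 3.70 and 2.45 to 3.22 FPKM. Cd3d and Lck were the markers of this list above vehicle in every treated library, Lck at 0.0508 and 0.106 FPKM in vehicle and 1.24 and 0.873 in MS-275 M-MDSCs, and Cd3d at 0.199 and 0.717 FPKM in vehicle and 2.32 and 2.31 in MS-275 PMN-MDSCs. Their part in the Ly6a difference was not tested. The endothelial markers Cdh5, Tek and Emcn did not exceed 0.105, 0.0295 and 0.0772 FPKM, although the sum of 6 endothelial markers was 17.2 to 17.8 FPKM in vehicle M-MDSCs and 38.1 to 41.8 under MS-275. Nearly all of that sum was Pecam1, which myeloid cells also express (9.44 and 8.80 FPKM under vehicle, 35.7 and 33.1 under MS-275), and Vwf, which was lower under MS-275 (7.69 and 8.87 against 5.86 and 4.79 FPKM). Kdr was at 0.0363 and 0.0568 FPKM in vehicle M-MDSCs, 0.263 and 0.083 under MS-275, and 0.111 and 0.0784 under CXD101. In PMN-MDSCs Kdr was highest under vehicle (0.771 and 0.969 FPKM) and lower under MS-275 (0.324 and 0.354) and CXD101 (0.645 and 0.587). The part of the endothelial markers in the Ly6a difference was not tested. The 13 stem or progenitor markers summed to 82.9 to 83.4 FPKM in vehicle M-MDSCs, 170 to 173 under MS-275 and 113 to 115 under CXD101, the same order as Ly6a, with Slamf1 at 0 in all 6 libraries. Of the 13, 9 were above vehicle in both MS-275 M-MDSC libraries and 3 below. Cd34 was at 1.56 and 0.790 FPKM under vehicle, 36.6 and 35.0 under MS-275, and 8.73 and 8.94 under CXD101. Those below vehicle under MS-275 were Lmo2 (53.4 and 55.3 against 42.6 and 42.1 FPKM), Meis1 (1.85 and 2.02 against 0.878 and 0.874 FPKM) and Flt3 (0.221 and 0.489 against 0.175 and 0 FPKM). With CXD101 in M-MDSCs 7 of the 13 were above vehicle and 4 below. In PMN-MDSCs the list summed to 65.6 to 68.8, 122 to 129 and 120 to 121 FPKM. There 7 of the 13 were above vehicle and 4 below with MS-275, and 6 above and 2 below with CXD101. The part of the progenitor markers in the Ly6a difference was not tested. Eosinophil markers (Prg2, Epx, Siglecf, Il5ra and Ccr3) summed to 10.2 to 14.95 FPKM in vehicle M-MDSCs, 144 to 163 under MS-275 and 112 to 123 under CXD101. In PMN-MDSCs the eosinophil sum was 62.9 to 66.2 FPKM under vehicle and lower, at 52.2 to 62.6 and 48.2 to 54.4, under MS-275 and CXD101. Prg2 and Epx were below vehicle there with both inhibitors. Siglecf, Il5ra and Ccr3 were above vehicle with MS-275, and Ccr3 also with CXD101. The part of the eosinophil markers in the Ly6a difference was not tested.

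Ly6c1 and Ly6c2 encode the Ly-6C antigens, and Ly-6C protein was a gate of the sort, so a difference between subsets was built into the samples and is no finding. Ly6c2 carried nearly all of the signal. In M-MDSCs it was at 1360 and 1306 FPKM under vehicle, 2395 and 2447 under MS-275, and 2110 and 2041 under CXD101. In PMN-MDSCs it was at 511 and 455 FPKM under vehicle, 1487 and 1677 under MS-275, and 1628 and 1418 under CXD101. Every treated library exceeded every vehicle library of its subset, and the treated PMN-MDSC libraries lay above the vehicle M-MDSC libraries. The ratio of means was 1.82 for MS-275 and 1.56 for CXD101 in M-MDSCs, and 3.27 and 3.15 in PMN-MDSCs. The log2 differences were 0.86 ± 0.05 and 0.64 ± 0.05 in M-MDSCs against 1.71 ± 0.10 and 1.65 ± 0.10 in PMN-MDSCs.

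MS-275 and CXD101 overlapped for Ly6c2 in PMN-MDSCs (log2 difference 0.06 ± 0.10), whereas in M-MDSCs the MS-275 libraries were higher by 0.22 ± 0.05. The inhibitor response was larger in PMN-MDSCs by 0.85 ± 0.12 log2 units for MS-275 and by 1.01 ± 0.12 for CXD101. In vehicle, PMN-MDSCs had 2.76-fold less Ly6c2 than M-MDSCs, in the direction of the gate. By level the groups ran from MS-275 M-MDSCs through CXD101 M-MDSCs, MS-275 PMN-MDSCs, CXD101 PMN-MDSCs and vehicle M-MDSCs to vehicle PMN-MDSCs, and of the neighbors in this order the third and the fourth overlapped. Ly6c2 was among the most abundant transcripts, at rank 63 to 70 of all genes in vehicle M-MDSCs and rank 23 to 24 under MS-275.

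Ly6c1 was at 6.26 and 5.36 FPKM in vehicle M-MDSCs, 8.85 and 11.3 under MS-275, and 8.03 and 9.80 under CXD101. PMN-MDSCs had 0.396 and 1.93 FPKM under vehicle, 9.79 and 7.98 under MS-275, and 6.78 and 6.29 under CXD101. Treated libraries again lay above vehicle, but the vehicle PMN-MDSC libraries rest on about 2.7 and 12.7 reads. The log2 differences from vehicle were 0.70 ± 0.14 and 0.54 ± 0.14 in M-MDSCs for MS-275 and CXD101, and 2.28 ± 0.30 and 1.90 ± 0.30 in PMN-MDSCs. The MS-275 value was 1.75 without replicate 1 of the vehicle PMN-MDSCs and 2.82 without replicate 2. MS-275 and CXD101 overlapped in M-MDSCs (0.16 ± 0.14), and in PMN-MDSCs they differed by 0.39 ± 0.30. In vehicle, the subsets differed by -1.75 ± 0.27 (PMN-MDSCs minus M-MDSCs), following the gate.

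The share of Ly6c1 in the summed Ly6c1 and Ly6c2 FPKM was 0.368% to 0.478% in the 6 M-MDSC libraries and 0.0775% to 0.654% in the 6 PMN-MDSC libraries. In M-MDSCs the treated and vehicle shares overlapped. Since most Ly6c2 windows lie within 2 mismatches of Ly6c1, a small misplaced fraction of Ly6c2 reads could not be told apart from true Ly6c1 reads at these shares. The sum of both genes, which does not depend on that division, was 1.82-fold higher under MS-275 and 1.56-fold higher under CXD101 in M-MDSCs, and 3.28- and 3.16-fold higher in PMN-MDSCs.

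The table of promoters used here held 2 of the 5 genes, Ly6c1 and Ly6c2. Each had 2 annotated starts, and the more upstream was used. The 250 bases before their starts are shown because both genes were higher under either inhibitor in both subsets (RefSeq, GRCm38.p6, minus strand, 5′ to 3′, with TATAAA and GAGGAA or its reverse complement in capitals). They are chr15:75048838-75049087 for Ly6c1 and chr15:75111972-75112221 for Ly6c2:
Ly6c1 upstream: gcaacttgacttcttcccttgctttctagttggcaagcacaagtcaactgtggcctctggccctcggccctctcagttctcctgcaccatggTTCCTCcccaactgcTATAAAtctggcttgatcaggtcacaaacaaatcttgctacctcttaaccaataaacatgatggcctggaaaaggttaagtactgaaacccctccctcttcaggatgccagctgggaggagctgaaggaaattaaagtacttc
Ly6c2 upstream: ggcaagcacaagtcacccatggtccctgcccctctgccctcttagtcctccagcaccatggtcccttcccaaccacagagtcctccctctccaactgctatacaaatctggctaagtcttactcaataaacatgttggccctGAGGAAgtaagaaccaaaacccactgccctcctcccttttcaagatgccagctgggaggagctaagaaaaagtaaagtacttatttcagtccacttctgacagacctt
The 2 stretches matched at 75.9% of aligned bases, less than the coding sequences. On either strand, GAGGAA, the core of PU.1 sites, occurred once in each, 158 bases before the Ly6c1 start and 108 bases before that of Ly6c2, and 23.3% of 32851 upstream regions of this length hold it. TATAAA (12.4% of regions) occurred in Ly6c1 only. Before the other annotated starts, GAGGAA lay 127 bases upstream for Ly6c1 and 142 and 8 bases upstream for Ly6c2, and TATAAA was in neither. The core of the interferon-stimulated response element (GAAA, any 2 bases, GAAA; 3.0% of regions), the gamma-activated site core TTCNNNGAA (7.0%) and the C/EBP core TTGCNNAA (9.6%) matched in neither, which says only that these letters are not in these windows. The motifs did not overlap each other in these stretches.

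Ly6e, a broadly expressed GPI-anchored antigen known for restricting coronavirus entry and for binding syncytin-A in the placenta, was abundant in all groups and its reads are the least ambiguous. In M-MDSCs it was at 475 and 469 FPKM under vehicle, 734 and 732 under MS-275, and 589 and 549 under CXD101. In PMN-MDSCs it was at 363 and 307 FPKM under vehicle, 624 and 675 under MS-275, and 545 and 525 under CXD101. In each subset the order was vehicle, CXD101, MS-275, with no overlap between libraries. The ratio to vehicle was 1.55 for MS-275 and 1.20 for CXD101 in M-MDSCs, and 1.94 and 1.60 in PMN-MDSCs. The log2 differences were 0.63 ± 0.06, 0.27 ± 0.06, 0.96 ± 0.09 and 0.68 ± 0.09 in the same order. MS-275 exceeded CXD101 by 0.37 ± 0.06 in M-MDSCs and by 0.28 ± 0.09 in PMN-MDSCs. In vehicle, Ly6e was lower in PMN-MDSCs than in M-MDSCs by 0.50 ± 0.08 log2 units, short of 1.5-fold. The 6 groups could be put in a full order, from MS-275 M-MDSCs at 733 FPKM to vehicle PMN-MDSCs at 335 FPKM, in which no neighbors overlapped.

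Ly6i, the closest relative of Ly6a among the 5 and another antigen of the same cluster, moved least with treatment. In M-MDSCs it was at 2.25 and 3.08 FPKM under vehicle, 3.32 and 3.54 under MS-275, and 2.88 and 2.13 under CXD101. In PMN-MDSCs it was at 8.82 and 8.03 FPKM under vehicle, 9.67 and 10.6 under MS-275, and 8.80 and 9.49 under CXD101. The CXD101 and vehicle libraries overlapped in both subsets, while the MS-275 libraries lay just above vehicle in both. The log2 difference from vehicle was 0.28 ± 0.16 for MS-275 and -0.07 ± 0.16 for CXD101 in M-MDSCs, and 0.24 ± 0.11 and 0.11 ± 0.11 in PMN-MDSCs. What separated the groups was the subset: in vehicle, PMN-MDSCs exceeded M-MDSCs by 1.37 ± 0.14 log2 units, and every PMN-MDSC library exceeded every M-MDSC library. The M-MDSC values rest on about 21.7 to 40.3 reads per library. Ly6a and Ly6i thus shared the direction between subsets in vehicle, opposite to Ly6c1, Ly6c2 and Ly6e, and differed under treatment.

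A common count puts the genes side by side, taking as past the fold those that differed by over 1.5-fold on the log2(FPKM + 1) scale with libraries that did not overlap. Under MS-275 in M-MDSCs, 4 of 5 were higher and none lower, beside 10.3% of 11078 genes higher and 7.45% lower. Under CXD101 in M-MDSCs, Ly6a and Ly6c2 were higher and none lower, beside 5.49% and 3.10% of genes. Under MS-275 in PMN-MDSCs 4 of 5 were higher and none lower, beside 14.9% and 14.4% of 11184 genes, and under CXD101 4 of 5 were higher and none lower, beside 12.2% and 9.76%. In all 4 comparisons Ly6i was the gene, or among the genes, that stayed inside. The comparisons of MS-275 and CXD101 with vehicle share their vehicle libraries, so they are not independent of each other. The medians of the 5 log2 differences were 0.70 and 0.54 in M-MDSCs and 1.71 and 1.65 in PMN-MDSCs, with medians over all genes of -0.06, -0.02, -0.03 and -0.03. Nearest the limit were Ly6e under MS-275 in M-MDSCs (1.55-fold, inside the count) and Ly6c1 under CXD101 in M-MDSCs (1.45-fold on this scale, outside it). Single libraries decided 3 of these counts. Ly6c1 under MS-275 in M-MDSCs went from 0.70 to 0.53 log2 units and left the count without replicate 2 of MS-275. Ly6c1 under CXD101 in M-MDSCs entered it at 0.67 without replicate 1 of CXD101 and at 0.63 without replicate 1 of vehicle. Ly6e under CXD101 in PMN-MDSCs left it at 0.56 without replicate 2 of vehicle.

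Between the inhibitors, at the same stated dose, Ly6a alone was past the fold, higher under MS-275 in M-MDSCs (3.65% of genes higher, 1.35% lower) and in PMN-MDSCs (1.53% and 1.03%). Between subsets in vehicle, Ly6a and Ly6i were higher in PMN-MDSCs (17.5% of 11662 genes) and Ly6c1 and Ly6c2 lower (17.0%). For the response in PMN-MDSCs minus that in M-MDSCs, with the fold alone, Ly6c1 and Ly6c2 were larger and Ly6a smaller, for MS-275 (10.4% of genes larger, 11.4% smaller) as for CXD101 (9.05% and 8.71%). The members were chosen with these contrasts in view, and nothing is read from the counts.

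**Figure D3:**
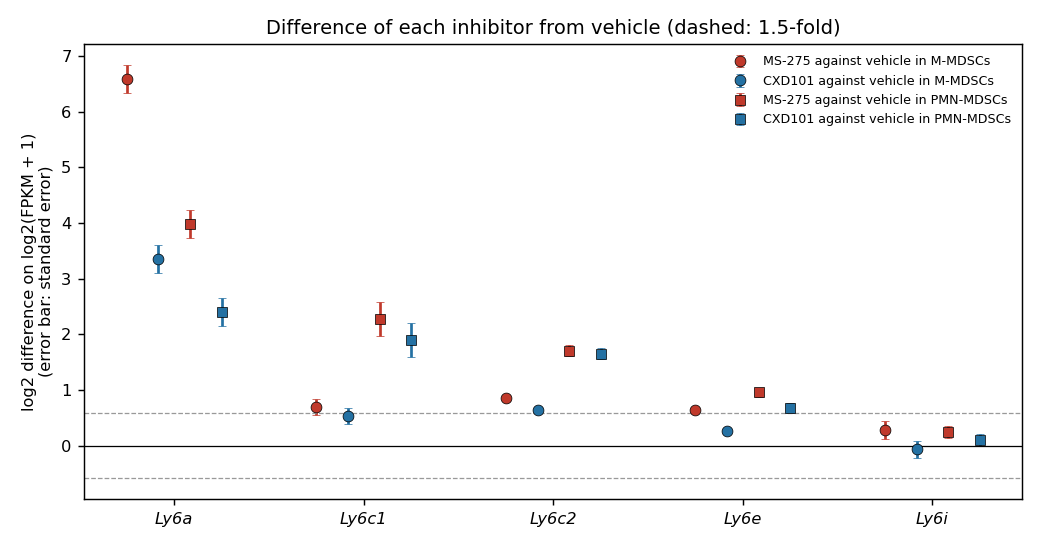
Log2 difference from vehicle on the log2(FPKM + 1) scale (vertical axis) for each of the 5 genes, with circles for M-MDSCs, squares for PMN-MDSCs, red for MS-275, blue for CXD101 and bars for the standard error. Ly6a is highest in each of the 4 comparisons (2.41 to 6.59), the Ly6c1 and Ly6c2 squares lie above their circles, and the Ly6i points lie between the dashed 1.5-fold lines.

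Across the 12 libraries, which share subset and treatment, Ly6c2 was most like Ly6e (Pearson r 0.928) and Ly6c1 (0.924) among the 5. Ly6i ran against Ly6c1 and Ly6c2 (-0.36 and -0.46) across the 12, but not within a subset. Its r with Ly6c1 and Ly6c2 was 0.21 and 0.42 in the 6 M-MDSC libraries, and 0.63 and 0.75 in the 6 PMN-MDSC libraries. Within M-MDSCs Ly6c2 was most like Ly6a (0.962), and within PMN-MDSCs most like Ly6e (0.961). Over the 12 libraries and all 11661 other genes, the pattern most like that of Ly6a was that of Lyz1 (r 0.997) and Lyz2 (0.994). These are the paralogous lysozyme genes of Paneth and myeloid cells, whose reads may be split between them. Serpine2 (0.972), which encodes a serine protease inhibitor, followed. Lyz1 was at 467 and 478 FPKM in vehicle M-MDSCs, 1062 and 1014 under MS-275, and 747 and 673 under CXD101. PMN-MDSCs had 621 and 579 FPKM under vehicle, 920 and 927 under MS-275, and 773 and 791 under CXD101. The 6 groups had the same order for Lyz1 as for Ly6a, over a 2.27-fold range for Lyz1 and a 183-fold range for Ly6a, and within subsets r was 0.998 in the 6 M-MDSC and 0.999 in the 6 PMN-MDSC libraries.

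**Figure D4:**
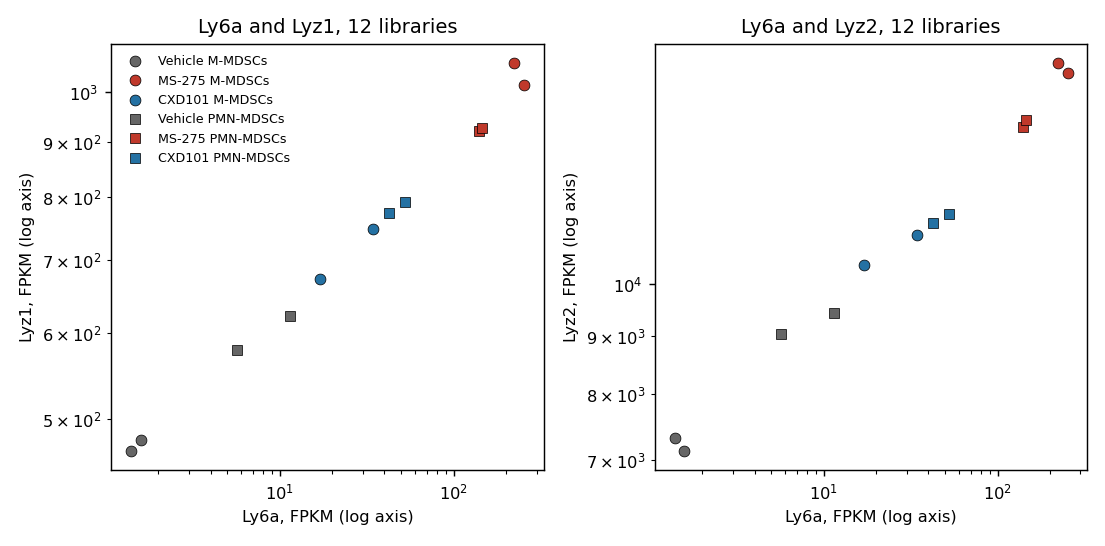
FPKM of Ly6a (horizontal log axes) against Lyz1 (left) and Lyz2 (right, vertical log axes) in the 12 libraries, with circles for M-MDSCs, squares for PMN-MDSCs, grey for vehicle, red for MS-275 and blue for CXD101. Both lysozyme genes are lowest in vehicle M-MDSCs and highest in MS-275 M-MDSCs, as Ly6a is, with Lyz1 between 467 and 1062 FPKM.

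For Ly6c2 the most alike genes were Gfi1 (r 0.984), which encodes a transcriptional repressor of granulocyte development, Fgd2 (0.979) and Pcyox1 (0.977). Gfi1 was at 12.5 and 13.9 FPKM in vehicle, 33.9 and 37.0 in MS-275 and 31.2 and 33.0 in CXD101 M-MDSCs, and at 3.63 and 3.24, 15.7 and 17.04, and 16.5 and 14.1 FPKM in the PMN-MDSC groups. Ly6c1 was most like Cnpy4 (0.954), 2700049A03Rik (0.948) and Lrrc20 (0.932), Ly6e most like Clec2i (0.980), Hsdl2 (0.978) and Abcd3 (0.978), and Ly6i most like Ier3 (0.991), Cd300lb (0.989) and Arid3b (0.987). Within the 6 M-MDSC libraries the r of Ly6i was 0.875 with Ier3 and 0.966 with Cd300lb, and within the 6 PMN-MDSC libraries 0.787 and 0.707.

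The wider Ly6/uPAR family, which shares the three-finger domain, was mostly silent. Of 41 further family genes listed, 35 were in the tables, 17 were above 0 in each subset, and 6 in M-MDSCs and 4 in PMN-MDSCs reached 1 FPKM in 2 libraries and were tested (limma on log2(FPKM + 1), Benjamini-Hochberg adjustment over all genes tested). Under MS-275 in M-MDSCs 4 of 6 were called higher and none lower (10.1% and 7.32% of all genes), but 3 of the 4 stayed under 1 FPKM in both vehicle libraries and entered the test through treated libraries, where they are high. With CXD101 2 of 6 were called higher (5.14% of all genes), 1 of them of this kind. In PMN-MDSCs 2 of 4 were called higher with MS-275 (14.6%) and 2 of 4 with CXD101 (11.9%), in each case 1 of this kind. The minimum thus fixed part of these counts, and nothing is read from their size.

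Cd177, the neutrophil surface glycoprotein that pairs with proteinase 3, had the largest change of these further genes. It was at 25.7 and 37.0 FPKM in vehicle M-MDSCs, 95.3 and 100 under MS-275, and 81.7 and 90.5 under CXD101. In PMN-MDSCs it was at 268 and 301 FPKM under vehicle, 1552 and 1601 under MS-275, and 1470 and 1499 under CXD101. No treated library overlapped vehicle, and MS-275 lay above CXD101 in each subset. The log2 differences from vehicle were 1.63 ± 0.14 (limma adjusted p = 6.49e-05) and 1.45 ± 0.14 (adjusted p = 3.87e-04) in M-MDSCs, and 2.47 ± 0.07 (adjusted p = 7.30e-07) and 2.38 ± 0.07 (adjusted p = 1.49e-06) in PMN-MDSCs. In vehicle it was higher in PMN-MDSCs by 3.16 ± 0.13 (adjusted p = 1.39e-08, 17.2% of genes called higher). It moved with the neutrophil marker sum given above, which was nearly all S100a8 and S100a9. The part of that sum in the Cd177 difference was not tested.

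Plaur, the urokinase receptor that gives the family its other name, was at 238 and 255 FPKM in vehicle M-MDSCs and at 218 to 230 FPKM in the 4 treated M-MDSC libraries. The PMN-MDSC libraries had 542 and 460 FPKM under vehicle, 659 and 726 under MS-275, and 623 and 627 under CXD101. Treated and vehicle libraries were apart in both subsets, in opposite directions. The M-MDSC differences of -0.14 ± 0.06 for MS-275 (limma adjusted p = 0.0864) and -0.15 ± 0.06 for CXD101 did not pass. In PMN-MDSCs the difference from vehicle was 0.47 ± 0.09 for MS-275 (limma adjusted p = 0.00296) and 0.32 ± 0.09 for CXD101 (adjusted p = 0.0194), both short of 1.5-fold and so not counted. Vehicle PMN-MDSCs exceeded vehicle M-MDSCs by 1.02 ± 0.08 (adjusted p = 1.32e-06). Over the tested family genes, the response was called larger in PMN-MDSCs for 2 of 6 with MS-275 (Cd177 and Plaur, 8.65% of all genes) and 1 of 6 with CXD101 (Cd177, 7.31%).

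The remaining called genes of the family were near the floor of detection. Because they passed the minimum only through the groups where they are high, their values are given as a description, with no p. Lynx1, a modulator of nicotinic acetylcholine receptors, was at 0.406 and 0.768 FPKM in vehicle M-MDSCs, 1.82 and 1.66 under MS-275, and 0.596 and 0.604 under CXD101. The MS-275 libraries, the 2 that reached 1 FPKM, lay above vehicle by 0.79 ± 0.16 and above CXD101 by 0.77 ± 0.16 log2 units (1 of 6 called higher between the inhibitors, 3.22% of all genes, and 0 without any single MS-275 or CXD101 library). Cd59a, the complement inhibitor protectin, was at 0.370 and 0.849 FPKM in vehicle M-MDSCs, 1.51 and 1.97 under MS-275, and 1.64 and 0.799 under CXD101. Its call with MS-275 was lost with no filter, with quantile scaling, without replicate 1 of vehicle and without replicate 2 of MS-275. The vehicle PMN-MDSC libraries had 1.09 and 1.87 FPKM of Cd59a, and the call of that excess over M-MDSCs was lost in 10 of 19 alternatives. The listed gene 9030619P08Rik was at 0.291 and 0.303 FPKM in vehicle M-MDSCs, 1.05 and 1.16 under MS-275, and 1.19 and 1.26 under CXD101. Ly6g5b was at 0.660 and 0.543 FPKM in vehicle PMN-MDSCs, 1.69 and 2.04 under MS-275, and 1.64 and 2.11 under CXD101. Between the inhibitors in PMN-MDSCs limma called 0 of 4 (0.805% of all genes called), and 0 had an unadjusted p under 0.05.

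**Figure D5:**
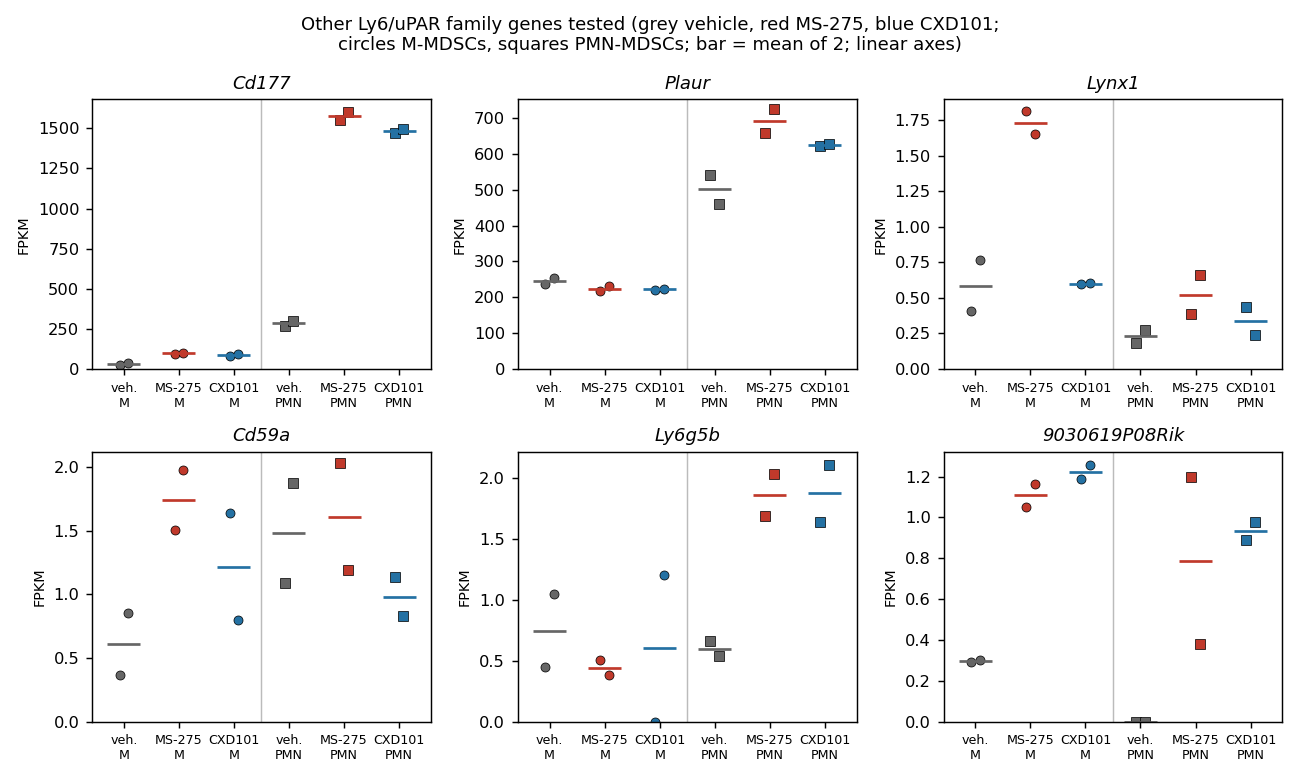
FPKM of the 6 further Ly6/uPAR genes that were tested in either subset (linear axes from 0, a separate range in each panel), with circles for M-MDSCs, squares for PMN-MDSCs, grey for vehicle, red for MS-275, blue for CXD101 and a bar at the mean of 2 libraries. Cd177 reaches 1552 and 1601 FPKM in MS-275 PMN-MDSCs, whereas Lynx1, Cd59a, Ly6g5b and 9030619P08Rik stay at or below 2.11 FPKM.

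Interferons reach these cells through surface receptors, JAK kinases and STAT and IRF transcription factors, and 22 genes of that path and its brakes were read beside the Ly6 genes. Under MS-275 in M-MDSCs 2 of 21 tested were called higher and 2 lower, with a median of -0.03, near the shares of all genes (10.1% and 7.32%). Socs1, an inhibitor of JAK kinases, was at 15.8 and 16.6 FPKM under vehicle and 30.0 and 27.1 under MS-275 (0.78 ± 0.16, limma adjusted p = 0.00541). Usp18, which blocks the type I interferon receptor, was at 0.425 and 0.633 FPKM under vehicle, 1.26 and 1.60 under MS-275, and 0.743 and 0.328 under CXD101, and it too passed the minimum only through the MS-275 libraries, so no p is given. Its call was lost without replicate 1 of vehicle. The interferon-gamma receptor chain Ifngr2 fell from 45.3 and 43.1 to 27.4 and 25.4 FPKM (-0.72 ± 0.07, adjusted p = 1.30e-04), and the phosphatase gene Ptpn6 fell from 271 and 270 to 151 and 155 FPKM (-0.82 ± 0.05, adjusted p = 1.85e-05). CXD101 in M-MDSCs gave 0 calls of 21 by limma (8.13% of all genes called in either direction), although 10 had an unadjusted p under 0.05 and 9 an adjusted p under 0.05 with a fold under 1.5.

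In PMN-MDSCs 4 of 22 interferon path genes rose with MS-275 and 1 fell (14.6% and 14.2% of all genes), and 3 of 22 rose with CXD101, near the 11.9% of all genes. The medians were 0.26 and 0.19, against -0.03 over all genes. Irf7, the amplifier of type I interferon responses, was at 12.9 FPKM in both vehicle libraries, 32.6 and 34.6 under MS-275, and 33.6 and 32.0 under CXD101 (1.31 ± 0.08 and 1.28 ± 0.08, limma adjusted p = 1.33e-05 and 2.38e-05). In M-MDSCs Irf7 stayed between 1.56 and 2.17 FPKM. Ifnlr1, the lambda interferon receptor chain, rose by 1.65 ± 0.09 and 1.36 ± 0.09 in PMN-MDSCs (adjusted p = 9.37e-06 and 3.43e-05), and Socs1 by 1.19 ± 0.08 and 0.85 ± 0.08 (adjusted p = 2.42e-05 and 1.72e-04). With MS-275, Socs3 also rose (0.75 ± 0.10, adjusted p = 4.84e-04) and Irf8, a monocyte lineage factor, fell (-1.03 ± 0.16, adjusted p = 0.00132). The members that rose are a receptor chain, a transcription factor and 2 inhibitors of JAK signaling.

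GPI anchors are built in the endoplasmic reticulum and joined to Ly6 proteins there, so the 29 genes of that path were listed, of which 27 were tested in each subset. With MS-275 in M-MDSCs 4 of 27 rose and none fell, beside 10.1% and 7.32% of all genes (median 0.19): Pgap3 (0.88 ± 0.13) and Pgap2 (0.66 ± 0.07), which remodel the lipid of finished anchors, Pigh (0.81 ± 0.14), of the enzyme that starts synthesis, and Dpm3 (0.73 ± 0.07), of the mannose donor synthase. Their limma adjusted p-values were 9.00e-04, 1.25e-04, 0.00196 and 8.96e-05. With CXD101 in M-MDSCs limma called 0 of 27 (8.13% of all genes in either direction), with 9 at an unadjusted p under 0.05. In PMN-MDSCs 3 of 27 rose and 2 fell with MS-275 (14.6% and 14.2% of all genes), and 3 rose with CXD101 (11.9%). The counts that rose were near the shares of all genes, and nothing is read from these counts. In PMN-MDSCs Pgap3 was at 1.57 and 1.40 FPKM under vehicle, 6.36 and 6.58 under MS-275, and 7.04 and 6.87 under CXD101 (1.59 ± 0.12 and 1.68 ± 0.12, adjusted p = 3.52e-05 and 4.34e-05). Pigp rose by 1.09 ± 0.14 and 0.99 ± 0.14 (adjusted p = 3.97e-04 and 9.22e-04) and Mppe1 by 0.69 ± 0.08 and 0.83 ± 0.08 (adjusted p = 3.39e-04 and 2.30e-04). With MS-275, Pigu and Pigk of the transamidase that attaches the anchor fell by 0.71 ± 0.13 and 0.62 ± 0.11 (adjusted p = 0.00267 and 0.00204), and the Pigu fold dropped under 1.5 without replicate 1 of MS-275. The medians in PMN-MDSCs were 0.16 for each inhibitor, against -0.03 over all genes.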

How the data were processed

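Total RNA of the sorted cells was sequenced as 101-base single-end reads. The submitters' processing notes name TopHat2 2.1.1, Bowtie2 2.2.8, SAMtools 0.1.18, Cuffdiff 2.2.1 and the build mm10. The authors deposited FPKM values, 1 table per library, so the counting of reads, the annotation, the handling of multiply mapped and stranded reads and the scaling were theirs; the settings are not given in the sources used here. FPKM are relative values, and a few very abundant transcripts can shift the others.

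Here log2(FPKM + 1) was fitted with limma 3.58.1 (R 4.3.3, intensity trend) over genes that reached 1 FPKM in 2 or more libraries of a model. These were 11078 genes for M-MDSCs (6 libraries), 11184 for PMN-MDSCs (6 libraries) and 11662 for all 12 libraries, the model used to compare subsets. Each gene had 1 estimate of spread over all groups of a model, which limma moderated toward that of genes of similar level. The same error thus serves comparisons whose libraries lie closer together or further apart. A call needed an adjusted p (Benjamini-Hochberg) under 0.05 and a fold above 1.5. With 2 libraries against 2, an exact permutation test of a single value cannot go below 0.333 (two-sided), so none was used. The code was tested on simulated data. Depth was estimated from the spacing of low FPKM values in genes with 1 transcript and is approximate. Sequences came from GENCODE and RefSeq and were compared with Biopython 1.88. The 5 genes and all lists were chosen with earlier results of these data known. Named were the 5 genes, all called family genes, up to 4 called genes per other list and comparison with vehicle with the largest difference, the 3 genes most correlated with each member, and defining markers. Alternatives were a pseudocount of 0.1, no filter, an FPKM minimum of 5, quantile and median-of-ratios scaling, no trend, other sets of libraries in the model, a replicate block and leaving out each library. No 2 libraries held identical values.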

Additional observations from a re-analysis of the deposited data

Results flagged for a closer look

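3 responses differed between PMN-MDSCs and M-MDSCs by the interaction term of the limma fit over all 12 libraries. The MS-275 response of Plaur was larger in PMN-MDSCs by 0.61 ± 0.11 log2 units (adjusted p = 0.00256), since Plaur was higher under MS-275 in PMN-MDSCs (659 and 726 FPKM against 542 and 460) and slightly lower in M-MDSCs (218 and 230 against 238 and 255). The MS-275 response of Cd177 was larger by 0.84 ± 0.18 (adjusted p = 0.00645) and its CXD101 response by 0.93 ± 0.18 (adjusted p = 0.00488). The Plaur difference fell under 1.5-fold, to between 0.49 and 0.57, without replicate 2 of the vehicle M-MDSCs, replicate 1 of the MS-275 M-MDSCs, or replicate 2 of the vehicle or MS-275 PMN-MDSCs, and that of Cd177 to 0.58 without replicate 2 of the vehicle M-MDSCs. With 2 libraries a group, no library could be examined for standing apart from its group.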

How the results depend on the processing

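No called difference changed direction under the alternatives run, and 10 single-gene differences lost their call under at least 1 alternative (29 such losses in all, 10 of them of Cd59a between subsets). With an FPKM minimum of 5, which removes low genes, the further Ly6/uPAR genes called were 1 with MS-275 and 1 with CXD101 in M-MDSCs, 0 between the inhibitors there, and 1 and 1 in PMN-MDSCs, and 1 interferon path gene rose with MS-275 in M-MDSCs. Quantile scaling gave 1 family gene higher with MS-275 in M-MDSCs, 0 between inhibitors, 1 GPI gene higher with CXD101 in M-MDSCs, 1 GPI gene lower with MS-275 in PMN-MDSCs, and 1 family gene with a larger MS-275 response in PMN-MDSCs. A pseudocount of 0.1 gave 2 GPI genes higher with CXD101 in M-MDSCs and 1 family gene lower in PMN-MDSCs, and without a filter 4 family genes rose with MS-275 in PMN-MDSCs. Beyond the filters the cause was not tested.

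Leaving out single libraries, family genes higher with MS-275 in M-MDSCs numbered 2 to 4, those between inhibitors 0 to 1, and those with a larger response in PMN-MDSCs 0 to 3 for MS-275 and 1 to 2 for CXD101. Interferon path genes numbered 1 to 2 higher with MS-275 and 0 to 1 lower with CXD101 in M-MDSCs, and 0 to 1 lower with CXD101 in PMN-MDSCs. GPI genes higher with CXD101 numbered 0 to 3 in M-MDSCs and 3 to 5 in PMN-MDSCs, and with MS-275 in PMN-MDSCs 3 to 5. Of the 5 Ly6 genes, 0 to 1 had a smaller CXD101 response in PMN-MDSCs, Ly6a dropping out without replicate 1 of CXD101 M-MDSCs or of vehicle PMN-MDSCs. A left-out library leaves a group with 1, assumed to vary like the others.

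Over all alternatives the Ly6a difference in M-MDSCs ranged from 6.50 to 7.24 for MS-275 and from 2.87 to 3.95 for CXD101, and the Ly6c1 difference in PMN-MDSCs from 1.75 to 3.15 for MS-275, the top being the pseudocount of 0.1. Small differences that crossed 0 were Ly6i with CXD101 in M-MDSCs (-0.23 to 0.10), Ly6c2 between the inhibitors in PMN-MDSCs (-0.04 to 0.16) and in M-MDSCs Ly6c1 between them (-0.0041 to 0.32), and the subset difference in the MS-275 response of Ly6i (-0.20 to 0.18).

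Same-numbered libraries of different groups deviated with correlations of -0.13 to 0.07. With 2 libraries a group, such weak correlations cannot show that same-numbered libraries were unpaired, and the labels do not say. The main models took all libraries as independent. The replicate block kept every list count within 1.5 times and changed 1 call, Cd59a between subsets (adjusted p = 0.0621). The genes called between the inhibitors in PMN-MDSCs went from 52 higher and 38 lower to 38 and 25 with the block.

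The depth limits the low genes: Ly6c1 in vehicle PMN-MDSCs rests on about 2.7 and 12.7 reads, and the division of reads between Ly6c1 and Ly6c2 is the authors' and was not varied.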

Other observations

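Outside the comparisons above, the family showed a few values at the edge of detection. In the 12 libraries 20 of the 35 further Ly6/uPAR genes had an FPKM above 0 in at least 1 library, and 6 met the minimum for a test. The gene 9030619P08Rik, listed at 0 in both vehicle PMN-MDSC libraries, was at 1.20 and 0.379 FPKM under MS-275 and at 0.890 and 0.979 FPKM under CXD101 there, below the minimum in that subset. Ly6g5b in M-MDSCs varied from 0 to 1.21 FPKM within the CXD101 group alone, whereas in PMN-MDSCs the treated libraries were at 1.64 to 2.11 FPKM.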
